A study of Rattus norvegicus with 10 samples.

Results

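Complex I of the respiratory chain is described here at the level of its nuclear genes in the rat choroid plexus, the folded epithelium of the brain ventricles that secretes most of the cerebrospinal fluid. The 35 genes are those whose symbol starts with NDUF in the study's supplementary gene tables, joined by Ensembl identifier to the 32883 genes of the deposited files, and no NDUF symbol was shared by 2 identifiers. They comprise 34 genes named as subunits and 1 assembly factor, NDUFAF8. The copy of the gene table used here holds the most abundant genes, 2015 named identifiers in all, so that assembly factors and subunits with low transcript levels were not analysed here.

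RNA came from female Wistar rats aged 27 weeks, with 1 rat in each of 10 libraries. The control group of 5 rats had eaten a nutrient source-matched diet with 10% of its energy from fat and the high fat diet (HFD) group of 5 rats a diet with 60%, each for 21 weeks. No rat carried a transgene or received another agent. In the study's methods, control rats were taken below and HFD-fed rats above a body weight threshold, so that diet and body weight cannot be told apart.

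Complex I takes electrons from NADH, passes them through a flavin and a chain of iron-sulfur clusters to ubiquinone, and moves protons out of the mitochondrial matrix. The nuclear genome encodes the catalytic core subunits of the arm in the matrix and the accessory subunits that surround both arms, while mitochondrial DNA encodes the core of the membrane arm. Assembly factors help to build the complex and are absent from the finished enzyme. The choroid plexus epithelium is rich in mitochondria, which supply the ATP for its ion pumps.

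Levels are given in TPM, a measure of transcript abundance per length that can be compared between genes. Rescaled TPM are TPM after division by a factor per library, its median ratio over 12037 genes to the average library. Control rat 1 stood apart, with a factor of 0.749 against 0.945 to 1.128 in the other 9 rats. Its mean effective transcript length was 789 bases against 874 to 968, a mean weighted by TPM that varies with the composition of the library. In this rat 1845 genes deviated over 2-fold from the remaining libraries, where each other rat had 172 to 235 such genes. Results are therefore given also for the remaining 9 rats and on the deposited scale. All 10 markers of the choroid plexus epithelium were detected in every rat, and their summed rescaled TPM, most of it from transthyretin (TTR), was 325552 to 536821 in control rats and 296567 to 413508 in HFD-fed rats. The highest control value was that of control rat 1, and the other control rats were at 325552 to 334669.7. Of the 10 epithelial markers 7 had a higher and 3 a lower mean in HFD-fed rats, with a median log2 fold change of 0.08, and KL was higher at a limma unadjusted p of 0.0314 (0.27 ± 0.11, SE), the only one under 0.05. The summed level of the stromal markers DCN and VIM was 186 to 289.8 against 215 to 317, and that of the macrophage markers CD74 and LYZ2 432 to 626 against 458 to 653. The mural marker RGS5 was at 42.6 in control rat 1, at 106 to 110.4 in the other control rats and at 101 to 129 in HFD-fed rats. PLVAP, a marker of fenestrated vessels, was at 53.8 to 97.2 against 51 to 67.2, with the highest value in control rat 1. The part of these cell types in the results below was not tested, and in whole tissue fewer cells of a type and less RNA per cell cannot be told apart.

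All 35 genes were well above the minimum level for testing, a mean rescaled TPM of 1. Their mean levels spanned 16.3-fold, from 63.8 TPM for NDUFA10L1 to 1042 TPM for NDUFA4. The 7 catalytic core subunits had the lower levels, with means from 97.9 to 288 TPM and a median of 155. The 26 accessory subunits had a median of 331 TPM and ran from 63.8 to 951. In every rat the median of the accessory subunits was above that of the core, at 336 to 439.7 against 152 to 206 TPM in control rats and 278 to 305 against 132 to 146 TPM in HFD-fed rats. NDUFAF8, at 198 TPM, lay below 24 subunits and above 10.

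**Figure D1:**
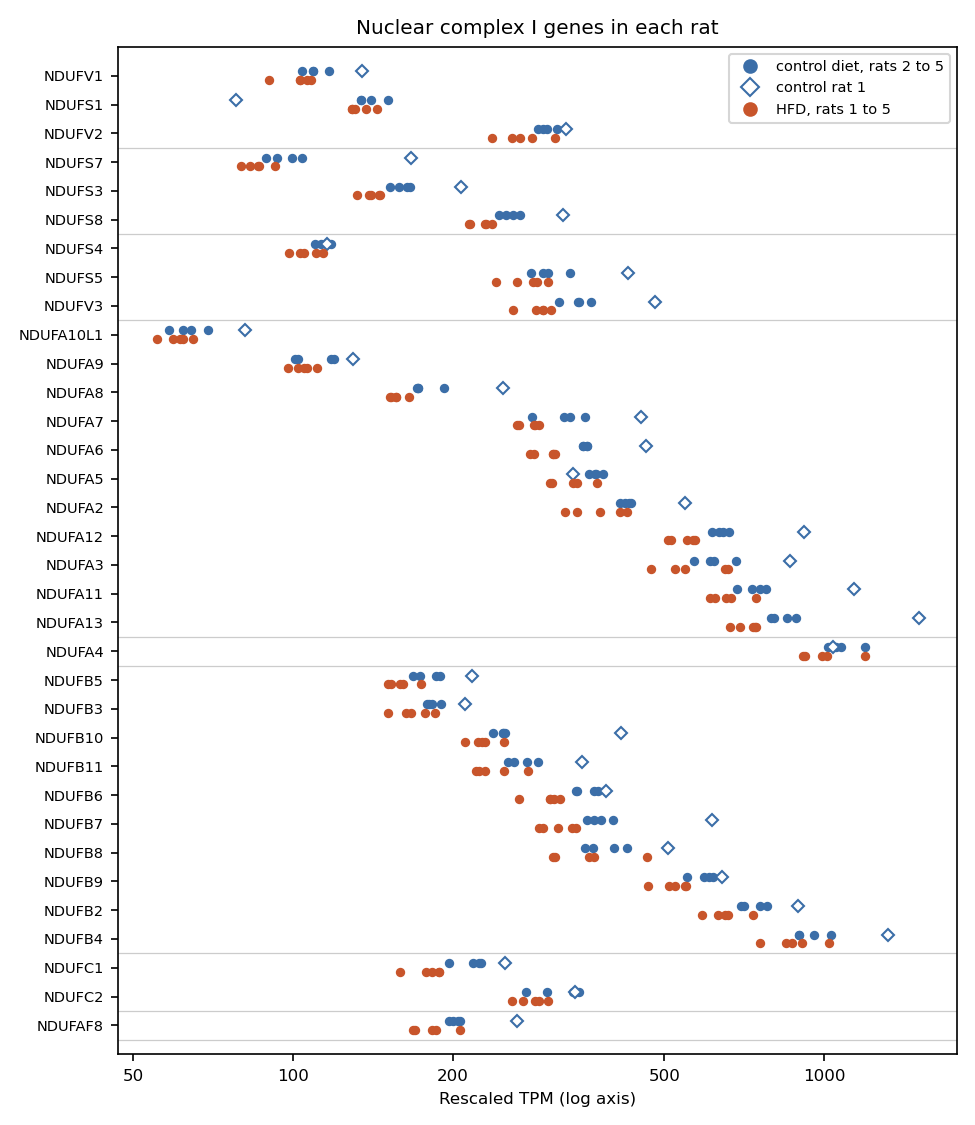
Rescaled TPM (log axis) of 34 of the nuclear complex I genes in each of the 10 rats, grouped by role from the catalytic core at the top to the assembly factor NDUFAF8 at the bottom. Blue points are control rats 2 to 5, open diamonds control rat 1 and orange points HFD-fed rats; the open diamond is the highest control value in 29 genes and far below the other rats for NDUFS1.

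The transcripts of complex I had a lower mean in HFD-fed rats than in control rats for 34 of the 35 genes, with a median log2 fold change (HFD minus control) of -0.23. No single gene passed the test used here. Limma on log2 rescaled TPM gave 0 of the 35 genes a Benjamini-Hochberg adjusted p under 0.05, with 0.54 as the smallest. This held for 0% of the 12198 genes tested. The study's own test of raw counts (DESeq2) had listed NDUFA6, NDUFB6 and NDUFB9 at an adjusted p under 0.05 in the same rats. At an unadjusted p under 0.05, 22 genes were lower and 0 higher in HFD-fed rats, where 4.84% of all genes tested were lower by this criterion and 8.62% differed in either direction. A lower mean was found for 47.1% of all genes. For 11 of the 35 genes every HFD-fed rat lay under all control rats, against 2.01% of all genes, and for 0 genes the reverse held. The standard errors of the log2 fold changes were 0.06 to 0.16.

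The median log2 fold change over all genes tested was 0.01, and it was lower among abundant genes. Of the 1480 genes at least as abundant as NDUFA10L1, 72.3% had a lower mean in HFD-fed rats, 14.3% were lower at an unadjusted p under 0.05 and 7.3% had every HFD-fed rat below every control rat, with a median log2 fold change of -0.09. Of the complex I genes, 16 had a mean level of 200 to 500 TPM, and their median log2 fold change was -0.25, against -0.10 for the 279 other genes at this level. At 500 TPM and over, up to the level of NDUFA4, the 8 complex I genes had a median of -0.23 and the 116 other genes -0.15. Under 200 TPM the 11 complex I genes had -0.17 and the 976 other genes -0.06. The complex I genes thus had lower medians than other genes of their level in each of the 3 ranges.

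**Figure D2:**
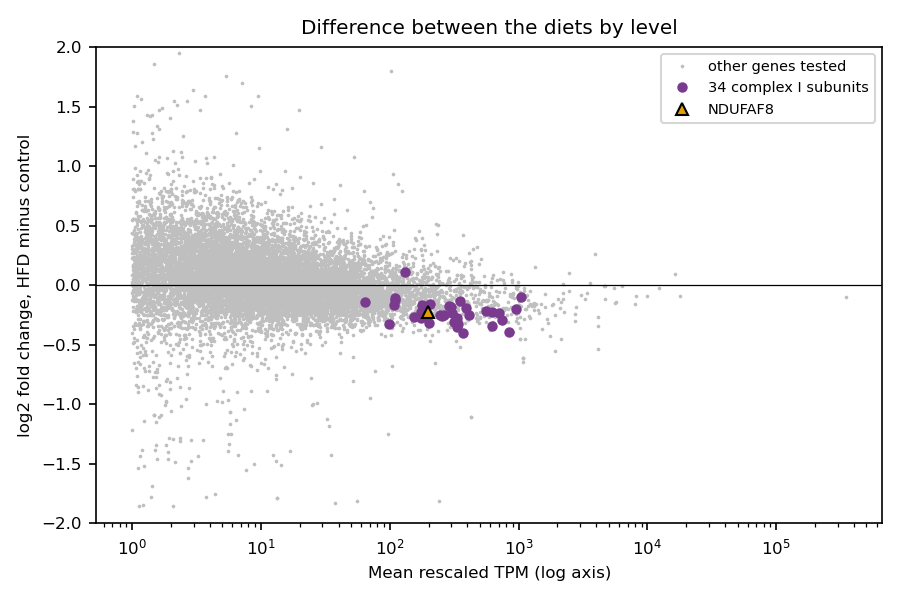
Log2 fold change (HFD minus control) of each gene tested against its mean rescaled TPM (log axis). Grey points are other genes, purple points the 34 complex I subunits and the yellow triangle NDUFAF8; 31 genes beyond 2 on the vertical axis are not drawn. The complex I genes lie between -0.40 and 0.11.

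These values depended on the scaling between rats. With TPM as deposited the median of all genes moved to 0.115, and that of the complex I genes to -0.13, with 33 genes lower. Relative to the median of all genes the complex I median was -0.24, against -0.25 with rescaled TPM and -0.17 without control rat 1. A factor per library shifts the log2 values of all genes alike. The closeness of -0.24 and -0.25 was therefore fixed in advance and does not test the result. With TPM as deposited 11 genes were lower at an unadjusted p under 0.05, against 1.26% of all genes and 64 of the 1480 abundant genes. On that scale 5 genes (NDUFA6, NDUFA12, NDUFS3, NDUFB7 and NDUFA2) had every HFD-fed rat below every control rat, against 0.336% of all genes. Without control rat 1 the complex I median of the rescaled values was -0.17 and all 35 genes were lower. At an unadjusted p under 0.05, 21 were lower, against 6.28% of all genes. Of the 1480 abundant genes, 292 then differed in either direction at this threshold. In 11 genes every HFD-fed rat lay below every control rat (2.73% of all genes), a count that leaving out a rat cannot lower. The smallest adjusted p by limma was then 0.19.

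Taken rat by rat, the 34 subunits deviated from their mean over all rats by a median log2 value of 0.40, 0.11, 0.02, 0.09 and -0.02 in control rats 1 to 5 and of -0.11, 0.01, -0.08, -0.18 and -0.19 in HFD-fed rats 1 to 5. Control rat 1 was the highest by far, and HFD-fed rat 2 lay within the range of the control rats. On the deposited scale the same medians were -0.01, 0.13, 0.08, 0.14 and 0.01 in control rats and -0.01, -0.07, -0.16, -0.04 and -0.02 in HFD-fed rats. There control rat 1 was the lowest of its group and level with HFD-fed rat 1. As a share of all deposited TPM, the 34 subunits summed to 1.22%, 1.33%, 1.29%, 1.34% and 1.22% in control rats and 1.20%, 1.16%, 1.08%, 1.18% and 1.19% in HFD-fed rats, so that the groups did not overlap. TTR alone took 32.2% to 39.7% of TPM in control rats and 32.2% to 38.2% in HFD-fed rats. Of the TPM outside TTR, the subunits made up 1.82% to 2.03% in control rats and 1.74% to 1.82% in HFD-fed rats, with control rat 5 and HFD-fed rat 2 at the shared end.

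**Figure D3:**
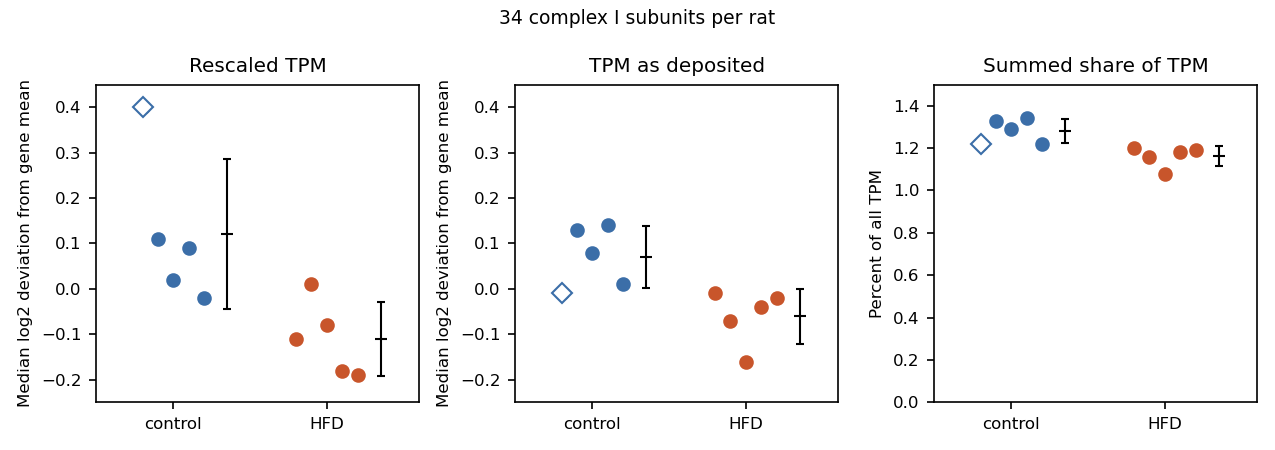
The 34 genes named as complex I subunits, NDUFA4 included, in each rat, as the median log2 deviation from each gene's mean over all rats with rescaled TPM (left) and TPM as deposited (middle), and as their summed share of deposited TPM in percent (right). Points are rats, the open diamond is control rat 1, and bars are mean ± SD of 5 rats; control rat 1 is at 0.40 on the left and at -0.01 in the middle, and the shares on the right run from 1.22% to 1.34% in control rats and from 1.08% to 1.20% in HFD-fed rats.

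Of the 7 catalytic core subunits, 6 had a lower mean in HFD-fed rats, against 72.3% of the 1480 abundant genes. An unadjusted p under 0.05 with a lower mean was found for 4, against 4.84% of all genes and 14.3% of abundant genes. The median log2 fold change of the core was -0.17. NDUFS3, part of the module that leads electrons to the quinone site, was at 207, 152, 164, 166 and 158 TPM in control rats 1 to 5 and at 140.2, 146, 145, 139 and 132 TPM in HFD-fed rats 1 to 5. Every HFD-fed rat lay under all control rats (HFD: 140.2 ± 5.65, n = 5 vs control: 169 ± 21.5, n = 5; SD; exact two-sided permutation test, p = 0.00794, the smallest that 5 rats against 5 allow), and the log2 fold change of -0.26 ± 0.08 (SE) had a limma adjusted p of 0.54. NDUFS8, which carries iron-sulfur clusters next to that site, was at 322 TPM in control rat 1, at 244 to 268 TPM in control rats 2 to 5 and at 229.8, 231, 237, 214 and 215 TPM in HFD-fed rats. These groups did not overlap either, and the log2 fold change was -0.25 ± 0.08 (SE), or -0.18 without control rat 1.

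NDUFS7, the subunit with the last iron-sulfur cluster before ubiquinone, had a log2 fold change of -0.33 ± 0.15 (SE) at a limma unadjusted p of 0.0523. Control rat 1, at 167 TPM, exceeded the range of 89 to 104 of controls 2 to 5, and the value was -0.17 when it was left out. On the NADH side, NDUFV1, which binds NADH and the flavin, had a log2 fold change of -0.17 ± 0.08 (SE), and so did its neighbour NDUFV2, at limma unadjusted p of 0.0646 and 0.0458. On the deposited scale both were at -0.07. When control rat 1 was left out NDUFV1 was at -0.11, and the limma unadjusted p of NDUFV2 was 0.0667.

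NDUFS1, the largest subunit of the complex and the one with the most iron-sulfur clusters, was the exception among the 35 genes. It was at 78.1, 151, 134, 139.9 and 134 TPM in control rats 1 to 5 and at 131, 144, 137, 129 and 129 TPM in HFD-fed rats 1 to 5. Control rat 1 was far below all other rats, although it was the highest of the 10 rats for 29 of the 35 genes. The log2 fold change was 0.11 ± 0.16 (SE; limma unadjusted p = 0.502), 0.21 on the deposited scale, and -0.06 without control rat 1.

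Of the 11 accessory NDUFA subunits, all were lower on average in HFD-fed rats, 7 at an unadjusted p under 0.05, with a median log2 fold change of -0.27. This median was -0.17 both when control rat 1 was left out and on the deposited scale, and without that rat it equalled the core median of -0.17. NDUFA6, which anchors the mitochondrial acyl carrier protein to the complex, was at 462, 351, 357, 351 and 357 TPM in control rats 1 to 5 and at 308, 308, 311, 284 and 279 TPM in HFD-fed rats 1 to 5. The other control rats lay between 351 and 357 TPM, and every HFD-fed rat was below them. The log2 fold change was -0.33 ± 0.09 (SE; limma adjusted p = 0.54), -0.25 without control rat 1 and -0.22 on the deposited scale.

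NDUFA12, an accessory subunit of the matrix arm, was at 917, 644, 633, 663 and 614 TPM in control rats and at 516, 572, 566, 551 and 509 TPM in HFD-fed rats. The groups were apart with rescaled TPM and on the deposited scale, and the log2 fold change was -0.34 ± 0.11 (SE), or -0.24 without control rat 1. NDUFA7 was at 452, 354, 332, 324 and 282 TPM in control rats and at 286, 291, 264, 266 and 284 TPM in HFD-fed rats, where control rat 5 fell among the HFD-fed rats (log2 fold change -0.31 ± 0.11, SE). NDUFA13, also known as GRIM-19, and NDUFA8, a disulfide-linked subunit on the intermembrane side, had every HFD-fed rat below every control rat as well. NDUFA13 reached 1509 TPM in control rat 1 against 793 to 885 in the other control rats, and its log2 fold change of -0.39 ± 0.16 (SE) became -0.22 without it. NDUFA8, at 248 TPM in control rat 1 against 171 to 192 in the other controls, had a log2 fold change of -0.27 ± 0.10 (SE), or -0.17 when that rat was left out.

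NDUFA2 and NDUFA11 were the other accessory NDUFA genes at an unadjusted p under 0.05, with log2 fold changes of -0.25 and -0.29. NDUFA11 was at 1141 TPM in control rat 1 against 687 to 778 in the other controls, its value was -0.16 when that rat was left out, and it kept an unadjusted p under 0.05 in 4 of the 10 fits with 1 rat fewer. NDUFA3, at 669 ± 116 TPM in control rats and 570.4 ± 80.8 in HFD-fed rats (SD, n = 5 each), had overlapping groups and went from -0.23 to -0.13 when control rat 1 was left out. Smaller differences were found for NDUFA5, NDUFA9 and NDUFA10L1. NDUFA5 was at 336, 372, 383, 370.3 and 361 TPM in control rats and at 337, 374, 342, 307 and 305 TPM in HFD-fed rats (log2 fold change -0.13 ± 0.07, SE). Here control rat 1 was the lowest of its group. NDUFA9 was at 129.7, 119.6, 102, 118 and 101 TPM against 106, 111, 105, 102 and 97.9 TPM (-0.12 ± 0.08, SE), and the groups overlapped.

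NDUFA10L1, a relative of the accessory subunit NDUFA10 and the least abundant of the genes, was at 81, 69.2, 62.1, 64.2 and 58.3 TPM in control rats and at 59.3, 62, 64.9, 55.3 and 61.2 TPM in HFD-fed rats (-0.14 ± 0.09, SE), with overlapping groups. NDUFA4, the most abundant, carries a complex I name and is included in the 34 subunits here, but is now placed in cytochrome c oxidase. It was at 1039, 1197, 1052, 1076 and 1017 TPM in control rats and at 991, 1197, 1015, 919 and 914 TPM in HFD-fed rats. HFD-fed rat 2 equalled the highest control rat, and the other HFD-fed rats were below every control rat. Its log2 fold change of -0.10 ± 0.09 (SE) was the one nearest 0 among the 34 genes with a lower mean, and with TPM as deposited it was 0.0024.

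The 10 NDUFB genes encode accessory subunits of the far part of the membrane arm. All were lower on average in HFD-fed rats, 7 at an unadjusted p under 0.05, with log2 fold changes from -0.40 to -0.16 and a median of -0.23. On the deposited scale the median was -0.12 and only NDUFB7 kept an unadjusted p under 0.05, 1 of the 10 genes. When control rat 1 was left out the median was -0.17, with 6 of 10. NDUFB6 was at 389, 368, 341, 375 and 343 TPM in control rats 1 to 5 and at 318, 309.8, 305, 266 and 305 TPM in HFD-fed rats 1 to 5, and control rat 1 lay close to the others. Its log2 fold change of -0.27 ± 0.07 (SE; limma adjusted p = 0.54) was -0.25 without control rat 1 and -0.17 with TPM as deposited. NDUFB9, which like NDUFA6 anchors an acyl carrier protein, was at 643, 593, 608, 618 and 552 TPM against 523, 549, 547, 511 and 466 TPM, with control rat 5 just above HFD-fed rat 2 (-0.22 ± 0.07, SE).

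NDUFB7, a disulfide-linked subunit on the intermembrane side, had the lowest log2 fold change of the 35 genes, -0.40 ± 0.14 (SE). It was at 616, 401, 369, 380.5 and 357 TPM in control rats and at 335, 316, 341, 296 and 291 TPM in HFD-fed rats. The groups were apart on both scales, and without control rat 1 the value was -0.26. NDUFB2, NDUFB3, NDUFB5, NDUFB10 and NDUFB11 had 4 of 5 HFD-fed rats below every control rat, with log2 fold changes of -0.23, -0.16, -0.22, -0.26 and -0.25. NDUFB3 did not keep its unadjusted p under 0.05 when control rat 1 was left out. NDUFB4, NDUFB8 and NDUFB10 did not reach an unadjusted p under 0.05, and the values of NDUFB4 (-0.20) and NDUFB8 (-0.19) both became -0.11 when that rat was left out. NDUFB10 was at 414 TPM in control rat 1 and at 238 to 251 in the other control rats, and its log2 fold change went from -0.26 to -0.11 without that rat.

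The remaining accessory subunits were NDUFC1, NDUFC2, NDUFS4, NDUFS5 and NDUFV3. NDUFC1, a small subunit of the membrane arm, had the smallest limma p of the 35 genes (unadjusted p = 0.0018, adjusted p = 0.54). It was at 251, 226, 218, 224 and 197 TPM in control rats and at 178, 188, 159, 183 and 188 TPM in HFD-fed rats, with no overlap and a log2 fold change of -0.31 ± 0.08 (SE). NDUFV3, at the NADH-oxidizing end, was at 481, 346, 317, 364 and 344 TPM against 296, 296, 287, 259 and 306 TPM (-0.35 ± 0.11, SE), again without overlap. With TPM as deposited, both genes had overlapping groups. NDUFC2 had a log2 fold change of -0.18, with -0.08 on the deposited scale. NDUFS5 had -0.24, and -0.14 when control rat 1, at 428 TPM against 281 to 332 in the other controls, was left out.

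NDUFS4, an accessory subunit that is often affected in inherited complex I deficiency, had among the smallest standard errors. It was at 116, 116, 113, 118 and 109.9 TPM in control rats and at 105, 114, 110.4, 103 and 98.1 TPM in HFD-fed rats. The groups overlapped, and the log2 fold change was -0.11 ± 0.06 (SE; limma unadjusted p = 0.0814), and -0.01 with TPM as deposited.

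**Figure D4:**
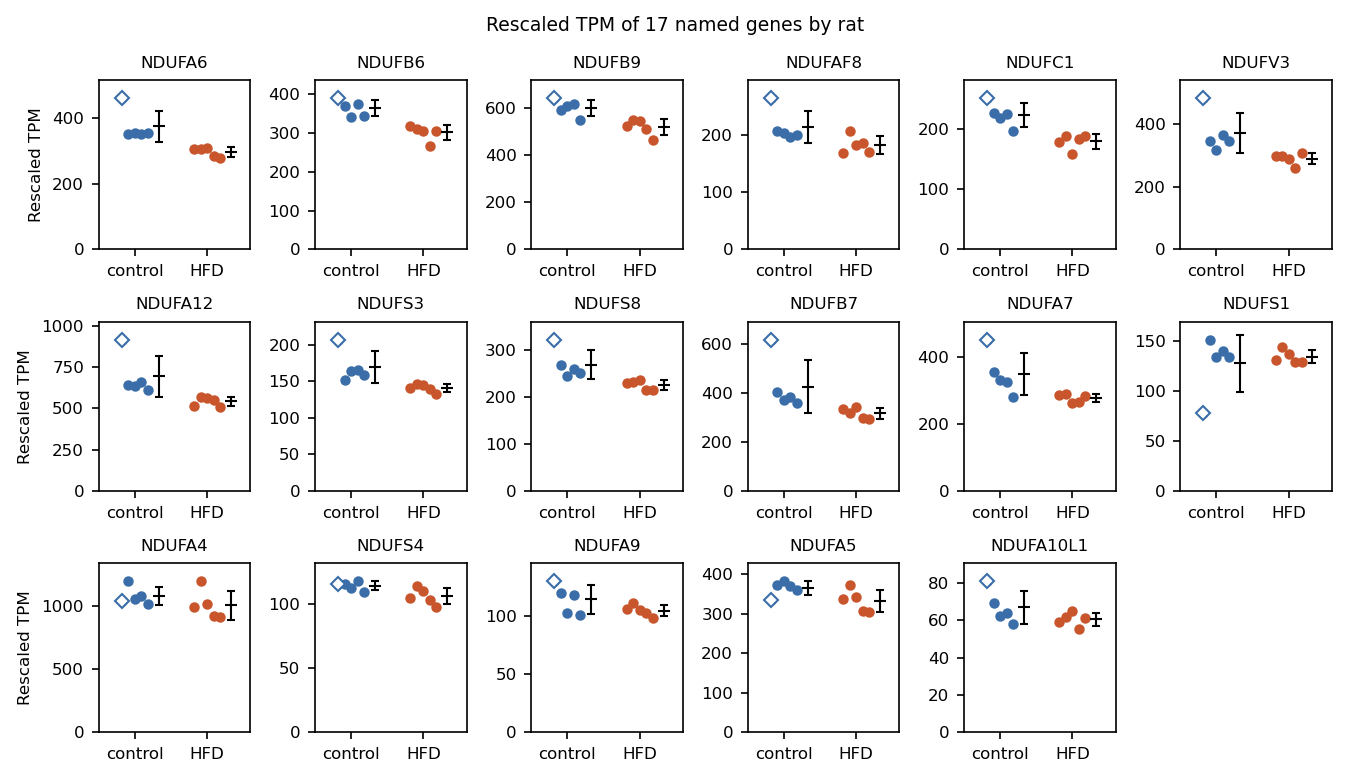
Rescaled TPM of 17 of the complex I genes in each rat, on axes that start at 0. Blue points are control rats, with control rat 1 as an open diamond, orange points are HFD-fed rats, and bars are mean ± SD of 5 rats; the HFD-fed rats lie below all control rats for NDUFA6, NDUFB6, NDUFB9, NDUFC1, NDUFV3, NDUFA12, NDUFS3, NDUFS8 and NDUFB7.

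NDUFAF8 is the assembly factor that works with NDUFAF5 in modifying NDUFS7 during assembly. It was at 264, 206, 204, 197 and 200.1 TPM in control rats 1 to 5 and at 168, 206, 183, 186 and 169.8 TPM in HFD-fed rats 1 to 5. HFD-fed rat 2 reached the level of control rat 2, and the other HFD-fed rats were below every control rat. The log2 fold change was -0.22 ± 0.09 (SE; limma unadjusted p = 0.0346, adjusted p = 0.569; exact permutation p = 0.0397), and -0.15 without control rat 1. On the deposited scale it was -0.12, with a limma unadjusted p of 0.092, and with ratios over abundant genes -0.13, with 0.0697. An unadjusted p under 0.05 was kept in 6 of the 10 limma fits that left out 1 rat. Among the 34 subunits, with a median of -0.23, 19 had a lower and 15 a higher log2 fold change. Measured against the median subunit of the same rat, log2 NDUFAF8 was -0.584 ± 0.104 in control rats and -0.588 ± 0.0779 in HFD-fed rats (SD, n = 5 each), a difference far smaller than the spread between rats. A single assembly factor does not stand for the others.

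**Figure D5:**
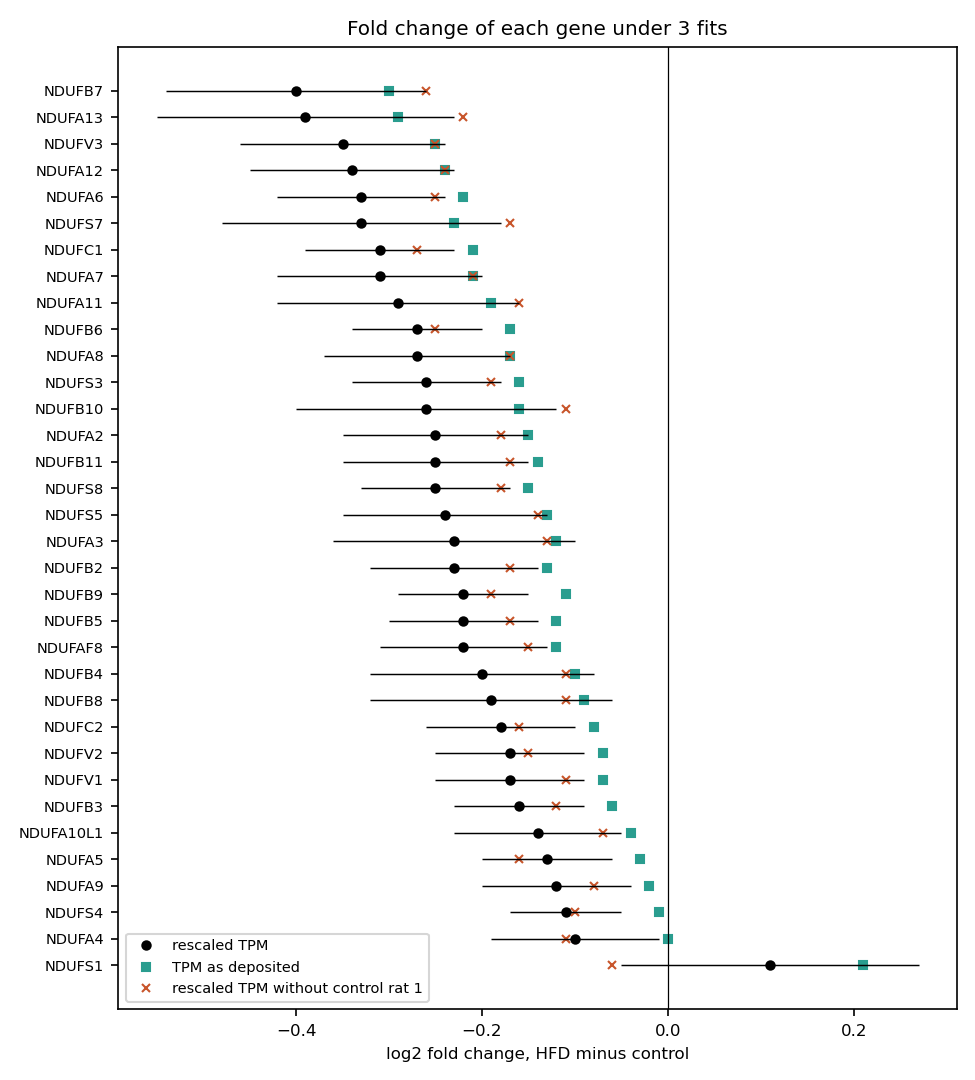
Log2 fold change (HFD minus control) of 34 of the complex I genes, ordered by the value from rescaled TPM of all 10 rats (black points, bars 1 SE), with the values from TPM as deposited (green squares) and from rescaled TPM without control rat 1 (orange crosses). The green squares lie to the right of the black points for every gene, and NDUFS1 is the gene whose cross lies on the other side of 0 from its black point, at -0.06 against 0.11.

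The rest of the respiratory chain was compared by the same fit. With all 10 rats the 7 complex I genes in mitochondrial DNA, MT-ND1 to MT-ND6 and MT-ND4L, all had a lower mean in HFD-fed rats. For these genes limma gave 0 an adjusted and 0 an unadjusted p under 0.05. Their median log2 fold change was -0.07, and 0.03 on the deposited scale. Leaving out control rat 1 moved the rescaled median to 0.10. All 7 genes then had a higher mean in HFD-fed rats, from 0.02 for MT-ND2 to 0.30 for MT-ND3. Of these 7, 1 was higher at a limma unadjusted p under 0.05. In control rat 1 the median of these genes was 3763 TPM, against 1925 to 2525 in the other control rats and 1752 to 3276 in HFD-fed rats. Of 39 nuclear genes of complexes II to V, 37 had a lower mean in HFD-fed rats, with a median of -0.22. UQCR10, 1 of the 37, averaged only 4.64 TPM in control rats and 3.35 TPM in HFD-fed rats, far below NDUFA10L1. At an unadjusted p under 0.05, 18 of the 39 were lower, against 4.84% of all genes and 14.3% of genes at least as abundant as NDUFA10L1. In 11 of the 39 every HFD-fed rat lay under all control rats, as in 11 of the 35 complex I genes, against 2.01% and 7.3%. On the deposited scale 8 were lower at an unadjusted p under 0.05, against 1.26% of all genes and 64 of the 1480 abundant genes, and the median was -0.12. When control rat 1 was left out the median was -0.14. By complex, the median log2 fold change was -0.13 over 4 genes of complex II, -0.22 over 9 of complex III, -0.17 over 10 of complex IV and -0.23 over 16 of complex V.

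Several complex I genes have pseudogenes or like-named genes listed in the rat genome, and reads of such genes could be divided in quantification. In the RefSeq gene table of assembly GRCr8 all 35 symbols were found, and 16 of them have a pseudogene or a like-named gene, with 7 pseudogenes and 4 like-named genes for NDUFB4 as the most. This match is by name and on another assembly than the one used for alignment, and neither sequence identity nor shared reads were measured, so that the values of these 16 genes are taken as uncertain. Their median log2 fold change was -0.24, with 9 of 16 lower at an unadjusted p under 0.05, and that of the 19 genes without named copies -0.23, with 13 of 19. By this criterion 4.84% of all genes and 14.3% of the abundant genes were lower. NDUFA6, NDUFB6, NDUFB7, NDUFB9, NDUFC1, NDUFS3, NDUFS8 and NDUFAF8 are among the 19 without named copies, whereas NDUFA12, NDUFA13, NDUFA7 and NDUFV3 have copies.

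Promoter sequences were examined as a feature shared by genes that lie on 14 chromosomes. RefSeq promoters of GRCr8, from 250 bases before to 50 bases after the start site, were matched for 31 of the 35 genes. CpG dinucleotides were frequent, with a median of 20 per promoter (range 9 to 39), against 11 over 21842 protein-coding promoters. More than 11 were present in 28 of the 31, against 48.6% of protein-coding promoters. The palindromic motif of the respiratory gene activator NRF1, whose letters can be read in the capitals of the NDUFA11 sequence, where 2 matches overlap, was searched on both strands and found in 1 of the 31 promoters (3.23%), that of NDUFA11, against 1.08% of protein-coding promoters and 0.852% of all 33469. The letters TCAAGGTCA, the motif of the estrogen-related receptor ESRRA, occurred in 0 of 31, against 0.366% of protein-coding promoters. Neither count says whether these factors bind.

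The bases upstream of the start site are shown for NDUFA11, the promoter with the NRF1 letters, 5′ to 3′ with the 2 overlapping matches in capitals. For NDUFC1, the gene with the smallest p, NDUFA6, whose groups were apart on both scales, and NDUFS1, the exception, CG dinucleotides are in capitals. NDUFA11 lies at chr9:1637364-1637613, plus strand, NDUFC1 at chr2:137601736-137601985, minus strand, NDUFA6 at chr7:115750318-115750567, minus strand and NDUFS1 at chr9:72073606-72073855, minus strand of GRCr8.
NDUFA11: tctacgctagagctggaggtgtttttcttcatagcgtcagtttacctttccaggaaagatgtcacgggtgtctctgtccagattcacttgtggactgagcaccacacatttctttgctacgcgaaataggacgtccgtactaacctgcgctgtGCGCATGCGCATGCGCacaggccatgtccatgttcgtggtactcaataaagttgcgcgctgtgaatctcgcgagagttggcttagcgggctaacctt
NDUFC1: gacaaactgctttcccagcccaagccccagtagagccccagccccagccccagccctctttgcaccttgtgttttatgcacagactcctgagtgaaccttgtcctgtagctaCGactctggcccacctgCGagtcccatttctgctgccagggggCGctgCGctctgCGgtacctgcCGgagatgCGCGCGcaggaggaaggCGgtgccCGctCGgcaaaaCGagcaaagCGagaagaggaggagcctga
NDUFA6: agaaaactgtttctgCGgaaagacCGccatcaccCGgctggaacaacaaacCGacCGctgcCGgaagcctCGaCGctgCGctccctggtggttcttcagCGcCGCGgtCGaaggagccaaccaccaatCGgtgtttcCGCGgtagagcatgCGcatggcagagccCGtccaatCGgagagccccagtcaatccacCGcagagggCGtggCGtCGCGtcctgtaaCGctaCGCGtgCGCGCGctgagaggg
NDUFS1: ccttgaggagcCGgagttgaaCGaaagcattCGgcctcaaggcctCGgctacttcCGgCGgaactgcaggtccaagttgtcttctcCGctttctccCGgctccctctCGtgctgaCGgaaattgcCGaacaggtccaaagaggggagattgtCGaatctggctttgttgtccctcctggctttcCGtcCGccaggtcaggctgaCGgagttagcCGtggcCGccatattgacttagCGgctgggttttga
In these 250 bases NDUFA6 holds 30 CG dinucleotides, NDUFS1 18, NDUFA11 17 and NDUFC1 14, so that NDUFS1 lay within the range of the others.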

How the data were processed

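RNA of the choroid plexus of 10 rats was sequenced in paired ends of NEBNext libraries. Per the labels, the authors aligned reads with STAR 2.7.2a to Rnor_6.0, a version that differs from that in the study's methods, and quantified genes with RSEM 1.3.3. Each deposited file lists TPM and FPKM by Ensembl gene with 2 decimals. Within a rat the deposited FPKM are a constant multiple of TPM and gave only the mean effective length weighted by TPM. Both carry no read numbers here. The study's methods state a sequencing output, but the depth of each library is unknown and no counting interval is given. The study's own test of raw counts with DESeq2 was not repeated, since counts were not used here, and its fold change and p columns were not used.

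TPM were divided by median ratios (genes above 0 in every rat with a mean TPM of at least 1, factors with a geometric mean of 1). Genes averaging 1 or more rescaled TPM were fitted on diet as log2(TPM + 0.1) in limma 3.58.1 (R 4.3.3; lmFit, then eBayes with trend), adjusted over 12198 genes. Fold changes are on that scale. Exact permutation tests used all assignments of 10 rats to 2 groups of 5. The fit was tested on simulated data. Tables and plots used python 3.11.15, numpy 2.4.6, pandas 2.3.3 and matplotlib 3.10.9. The members, lists and settings were chosen with earlier results of these data known. Values of each rat are given for 17 genes: NDUFA6, NDUFB6, NDUFB9, NDUFAF8, NDUFA4, NDUFA10L1, the 10 with the smallest p, the 5 with the highest fold change and the most and least abundant. NDUFA6, NDUFB6 and NDUFB9 are in the study's list of differing genes, which was drawn from these rats and is not independent evidence. Cell type markers were PLVAP and RGS5 (vessels), DCN and VIM, CD74 and LYZ2, HBB and 10 epithelial genes. Replicates are separate rats. Values of 1 member are not reported here by name, and it is left out of the plots that label single genes, while counts and medians include it.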

Additional observations from a re-analysis of the deposited data

Results flagged for a closer look

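A sample far from the others of its group was looked for in 44 groups of 5 rats, by the gap between the most extreme rat and its nearest neighbour as a share of the group's range. The share was over 0.71 in 11 groups, where chance alone gives about 1 in 20, and 10 of the 11 are control rat 1. Its values are not independent, since they share 1 library and 1 rescaling factor.

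Control rat 1 was the highest of its group for NDUFA6 (share 0.943; 462 TPM against 351 to 357), NDUFAF8 (0.862; 264 against 197 to 206), NDUFA12 (0.837; 917 against 614 to 663), NDUFB7 (0.829; 616 against 357 to 401), NDUFS3 (0.734; 207 against 152 to 166) and NDUFV3 (0.714; 481 against 317 to 364). It was the lowest for NDUFS1 (0.762; 78.1 against 134 to 151). The summed rescaled TPM of the subunits was 16344 in this rat against 11953 to 13161 in the other control rats (0.725). Its rescaling factor (0.879) and its number of genes that deviated over 2-fold from the remaining libraries (0.971) stood apart in the same way. The remaining group was NDUFB6 in HFD-fed rats, where rat 4 was the lowest (0.744; 266 TPM against 305 to 318).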

How the results depend on the processing

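Under all 21 alternatives 0 of the 35 complex I genes had a limma adjusted p under 0.05, 33 to 35 had a lower mean in HFD-fed rats, and the median of the subunits stayed between -0.27 and -0.13. The number of genes at an unadjusted p under 0.05, 22 with all rats, was 11 with TPM as deposited and 14 with median ratios over abundant genes, and ran from 12 (without HFD-fed rat 4; 13 without HFD-fed rat 5) to 25 when 1 rat was left out. Genes with every HFD-fed rat below every control rat numbered 5 with TPM as deposited and 7 with ratios over abundant genes. When 1 rat was left out they numbered 11 to 19, with 19 without HFD-fed rat 2. On unchanged values leaving out a rat can only keep or raise this count, so that range does not test it. Of 357 values of named genes, 4 changed sign and 353 kept their direction: NDUFA4 was 0.0024 with TPM as deposited, and NDUFS1 was -0.05 with array weights, -0.06 without control rat 1 and -0.05 with TPM as deposited and that rat left out. NDUFS1 reached 0.18 without control rat 2. The alternative filters, the fit without a mean-variance trend and the replicate block leave log2 fold changes unchanged by design. Other pseudocounts hardly alter genes at these levels. Part of the agreement in direction was thus fixed in advance. The setting with 2 changes together and the count of groups that do not overlap were chosen after seeing the data. The cause was not tested. The read depth of each library is unknown.

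Rats of the 2 groups share replicate numbers only by name, with correlations of their deviations of 0.116, -0.038, 0.011, 0.06 and 0.106. With replicate block, 0 genes had an adjusted p under 0.05 and 19 an unadjusted p under 0.05.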
